A study of Mus musculus with 21 samples.

Results

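The genes described here are the 6 protein-coding genes at and around the Aire locus on mouse chromosome 10, namely Aire, Dnmt3l, Icosl, Pfkl, Trpm2 and Lrrc3. They were taken by symbol from a table of read counts for 55471 genes, and all 6 were found in it. RNA was sequenced from dendritic cells (DCs), the professional antigen-presenting cells of the immune system, sorted from 6-week-old C57BL/6 mice that the labels call male. All 7 groups carried AGF-KI, a knock-in allele that reports Aire expression by fluorescence, and each group held 3 libraries from independent biological replicates. In lymph node the groups were AGF+ cells of AGF-KI/- mice (titled AireKO), AGF+ cells of AGF-KI/+ mice (KI/+), AGF- cells of AireKO mice and AGF- cells of KI/+ mice, each from the CD45+CD11c+MHCII+ gate. In bone marrow they were AGF+ cells of AireKO mice and AGF+ cells of KI/+ mice, both B220-CD24+ with little or no CD11b, and from KI/+ mice only B220-CD11c+MHCII+ cells, total DC by title and AGF- by design text. No group lacked the reporter allele, and the sources used here do not say which part of Aire each allele removes.

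Aire, the autoimmune regulator, is a nuclear protein best known from medullary thymic epithelium, where it promotes transcription of many tissue-restricted genes so that developing T cells meet those antigens. Loss of AIRE in people causes an autoimmune polyendocrine syndrome. Outside the thymus, Aire is also transcribed in some DC-like cells of secondary lymphoid organs. Its neighbours have unrelated textbook roles. Dnmt3l has no catalytic activity of its own, assists the enzymes that set new DNA methylation and acts mainly in germ cells. Icosl is the ligand of the T cell costimulatory receptor ICOS, Pfkl is the liver-type subunit of phosphofructokinase in glycolysis, Trpm2 is a calcium-permeable channel opened by ADP-ribose, and Lrrc3 encodes a leucine-rich repeat protein.

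On GRCm38 the genes lay in the order Lrrc3, Trpm2, Pfkl, Aire, Dnmt3l and Icosl, positions being those of the GENCODE vM21 annotation. Lrrc3 (ENSMUSG00000051652, chr10:77897575-77902536), Trpm2 (ENSMUSG00000009292, chr10:77907722-77970563), Pfkl (ENSMUSG00000020277, chr10:77986947-78010083) and Aire (ENSMUSG00000000731, chr10:78030022-78043610) are on the minus strand. Dnmt3l (ENSMUSG00000000730, chr10:78041947-78063622) and Icosl (ENSMUSG00000000732, chr10:78069302-78083913) are on the plus strand. Aire and Dnmt3l are thus transcribed away from each other with bodies that overlap over 1664 bases, while Dnmt3l and Icosl run in the same direction with 5679 bases between them. Pfkl ends its upstream side 19938 bases from the 3' end of Aire. The annotation lists 16 transcripts for Aire, 8 for Dnmt3l, 4 for Icosl, 8 for Pfkl, 10 for Trpm2 and 1 for Lrrc3, which the gene counts do not separate. Exons of Aire and Dnmt3l share 67 bases, 1.75% of the exon bases of Aire and 2.24% of those of Dnmt3l. The sources used here do not say whether the counting used strand, so reads of both genes inside those bases cannot be told apart.

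Promoter windows of the 3 genes that were higher in AGF+ cells of both tissues are printed below, for a single annotated start of each gene. Sequences are from RefSeq on GRCm38.p6 and run 5' to 3' on each gene's own strand, from 250 bases before the start to 50 bases from it. The windows are chr10:78043561-78043860 on the minus strand for Aire, chr10:78042037-78042336 on the plus strand for the Dnmt3l start nearest to Aire, and chr10:78069118-78069417 on the plus strand for Icosl. Capitals mark matches on either strand to the TATA box letters (TATAAA), the CAAT box letters (CCAAT, which read ATTGG when on the opposite strand) and the GC box letters (GGGCGG, which read CCGCCC when on the opposite strand). No capitals overlap.
Aire: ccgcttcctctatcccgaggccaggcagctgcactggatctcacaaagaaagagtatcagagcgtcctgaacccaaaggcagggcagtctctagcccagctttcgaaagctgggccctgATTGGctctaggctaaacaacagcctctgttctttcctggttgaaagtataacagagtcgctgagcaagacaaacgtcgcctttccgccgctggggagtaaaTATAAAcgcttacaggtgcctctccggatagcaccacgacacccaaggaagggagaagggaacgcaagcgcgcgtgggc
Dnmt3l: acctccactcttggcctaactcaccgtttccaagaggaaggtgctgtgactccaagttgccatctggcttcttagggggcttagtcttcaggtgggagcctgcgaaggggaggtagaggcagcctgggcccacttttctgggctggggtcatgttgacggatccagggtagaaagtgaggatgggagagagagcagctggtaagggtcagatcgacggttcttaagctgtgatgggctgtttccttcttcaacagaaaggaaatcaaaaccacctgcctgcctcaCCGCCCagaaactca
Icosl: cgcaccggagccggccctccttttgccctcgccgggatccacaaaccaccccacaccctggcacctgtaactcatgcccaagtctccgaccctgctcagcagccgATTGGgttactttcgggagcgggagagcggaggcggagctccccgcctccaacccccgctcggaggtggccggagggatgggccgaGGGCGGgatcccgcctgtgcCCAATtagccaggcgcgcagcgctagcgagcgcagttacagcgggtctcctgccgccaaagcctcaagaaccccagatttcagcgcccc

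In the Aire window TATAAA began 29 bases before the start, and a CCAAT on the other strand lay at -131. Both distances are from the RefSeq start at 78043610. The protein-coding Aire transcripts of GENCODE begin further downstream, at 78043580. The Icosl window held a CCAAT at -39, another on the opposite strand at -145, and a GGGCGG at -59. The Dnmt3l window held a single GGGCGG on the other strand, at position 36 after the start. The Icosl window had 26 CpG dinucleotides, the Aire window 16 and the Dnmt3l window 6, against a median of 7 over all 32851 mouse windows of this length. Windows of Pfkl, Trpm2 and Lrrc3 had 20, 15 and 14. Of all windows, 13.6% held TATAAA, 37.4% held CCAAT and 35.7% held GGGCGG on either strand, and the matches are a description of these letters only. RefSeq gave Dnmt3l further starts at 78049842 and 78055335, inside the gene, whose windows are not printed. The window at 78049842 held GGGCGG on the other strand at -78 and -22, and 4 CpG. The window at 78055335 held none of the 3 motifs, and 3 CpG. Which start these cells use was not tested.

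Libraries held 4164451 to 6055097 counts, so that 1 CPM (reads per gene scaled to TMM effective library sizes) rests on 3.93 to 6.58 counts and a count of 0 allows up to 0.456 to 0.764 CPM in a library. Such floors, and the intervals on shares below, cover counting error only. The 7 libraries numbered 2, 1 in each group, went against the label male. They had 2022 to 3994 CPM of Xist and at most 0.766 CPM over 4 Y-linked genes, whereas the Y-linked sum was 329 to 567 CPM in the other 14 libraries and Xist at most 31.1 CPM. Results of the locus genes, and of the other genes named, that lost their call without these libraries are given both ways, a setting added for the other genes and the lists after the data were seen. All 7 DC markers examined (Itgax, Cd74, Flt3, Zbtb46 and 3 MHC class II genes) were detected in every group. Markers of medullary thymic epithelium summed to 2.46 to 12.5 CPM in any library, with Psmb11 or Foxn1 at 0 in 6 of the 7 groups. In sorted bulk samples, fewer cells that express a gene cannot be told apart from less of its RNA in each cell.

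Genes were called at a Benjamini-Hochberg adjusted p under 0.05 in edgeR's quasi-likelihood test over all genes that passed a filter on low counts. Between the lymph node sorts 5 of the 6 locus genes were called in each genotype, with Aire, Dnmt3l and Icosl higher and Trpm2 and Lrrc3 lower in AGF+ cells. Of all 15884 genes, 24.7% were called in AireKO mice (11.4% higher and 13.3% lower) and 21.1% in KI/+ mice (10.1% higher and 11% lower). Without the libraries numbered 2 the count was 3 in both genotypes. In bone marrow 4 of 5 tested were called (3 higher and 1 lower) where 44.4% of 15503 genes were (22.8% higher and 21.6% lower). Between genotypes 2 of 6 were called in lymph node AGF+ cells (0.0126% of all genes, 0.00630% in each direction), 1 of 6 in lymph node AGF- cells (0.00630%) and 2 of 5 in bone marrow AGF+ cells (0.0129%, 0.00645% in each direction). These calls, of Aire and Dnmt3l, were the only ones among the genes that passed the filter. AireKO and KI/+ mice differ in an allele of Aire itself, so a difference in Aire is part of the design. For Dnmt3l, which overlaps Aire, loss of Aire and a local effect of that allele cannot be told apart. With no filter on low counts, 97, 270 and 26 genes were called in these 3 comparisons, and without lymph node AGF- AireKO replicate 2 the AGF- comparison called 89. Between lymph node and bone marrow AGF+ cells of AireKO mice 5 of 6 were called (3 higher and 2 lower), where 51.4% of 17265 genes were (25.7% in each direction). In KI/+ mice 3 of 6 were called (2 higher and 1 lower), where 54.2% of genes were (27.2% higher and 27.1% lower). In the interaction of reporter with tissue 2 of 6 were called, both negative, where 21% of genes were (9.75% positive and 11.2% negative). The comparisons of sorts, genotypes and tissues share libraries and are not independent of each other. AGF+ cells of lymph node and bone marrow came from different gates, so tissue and gate cannot be told apart in any value of lymph node against bone marrow. Within bone marrow, AGF+ cells and total DCs came from different gates too. Reporter and gate therefore cannot be told apart in any value of bone marrow AGF+ cells against total DCs.

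Markers of DCs and of other cell types also differed between the sorts. Of the 7 DC markers, 2 were called higher and 5 lower in lymph node AGF+ cells of AireKO mice. In KI/+ mice 0 were called higher and 4 lower in lymph node, and 1 higher and 1 lower in bone marrow AGF+ cells. Without the libraries numbered 2 these were 2 and 2 in lymph node AireKO, 0 and 2 in lymph node KI/+, and 1 and 0 in bone marrow. T and NK cell genes (Cd3e, Cd3d, Cd3g, Ncr1, Nkg7 and Gzma) were called lower in lymph node AGF+ cells for 6 of 6 in each genotype, and summed to 4.22 to 9.83 CPM in AGF+ and 50.6 to 333 CPM in AGF- cells of AireKO mice, and to 3.15 to 4.26 CPM in AGF+ and 31.3 to 226 CPM in AGF- cells of KI/+ mice. Genes of plasmacytoid DCs (Siglech, Bst2, Tcf4, Ly6d and Ccr9) were called higher in bone marrow AGF+ cells for 4 of 5, at 1301 to 1472 CPM in AGF+ cells and 557 to 654 CPM in total DCs. Genes of type 2 conventional DCs (Sirpa, Cd209a, Clec10a and Clec4a2) were called lower in AGF+ cells for 4 of 4 in all 3 sorts, the sums being 172 to 225 CPM in AGF+ cells and 430.5 to 458 CPM in total DCs of bone marrow. Without the libraries numbered 2, 3 of these 4 were called lower in lymph node in each genotype, and 4 in bone marrow. The part of these cells in the sort differences of the locus genes was not tested.

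**Figure D1:**
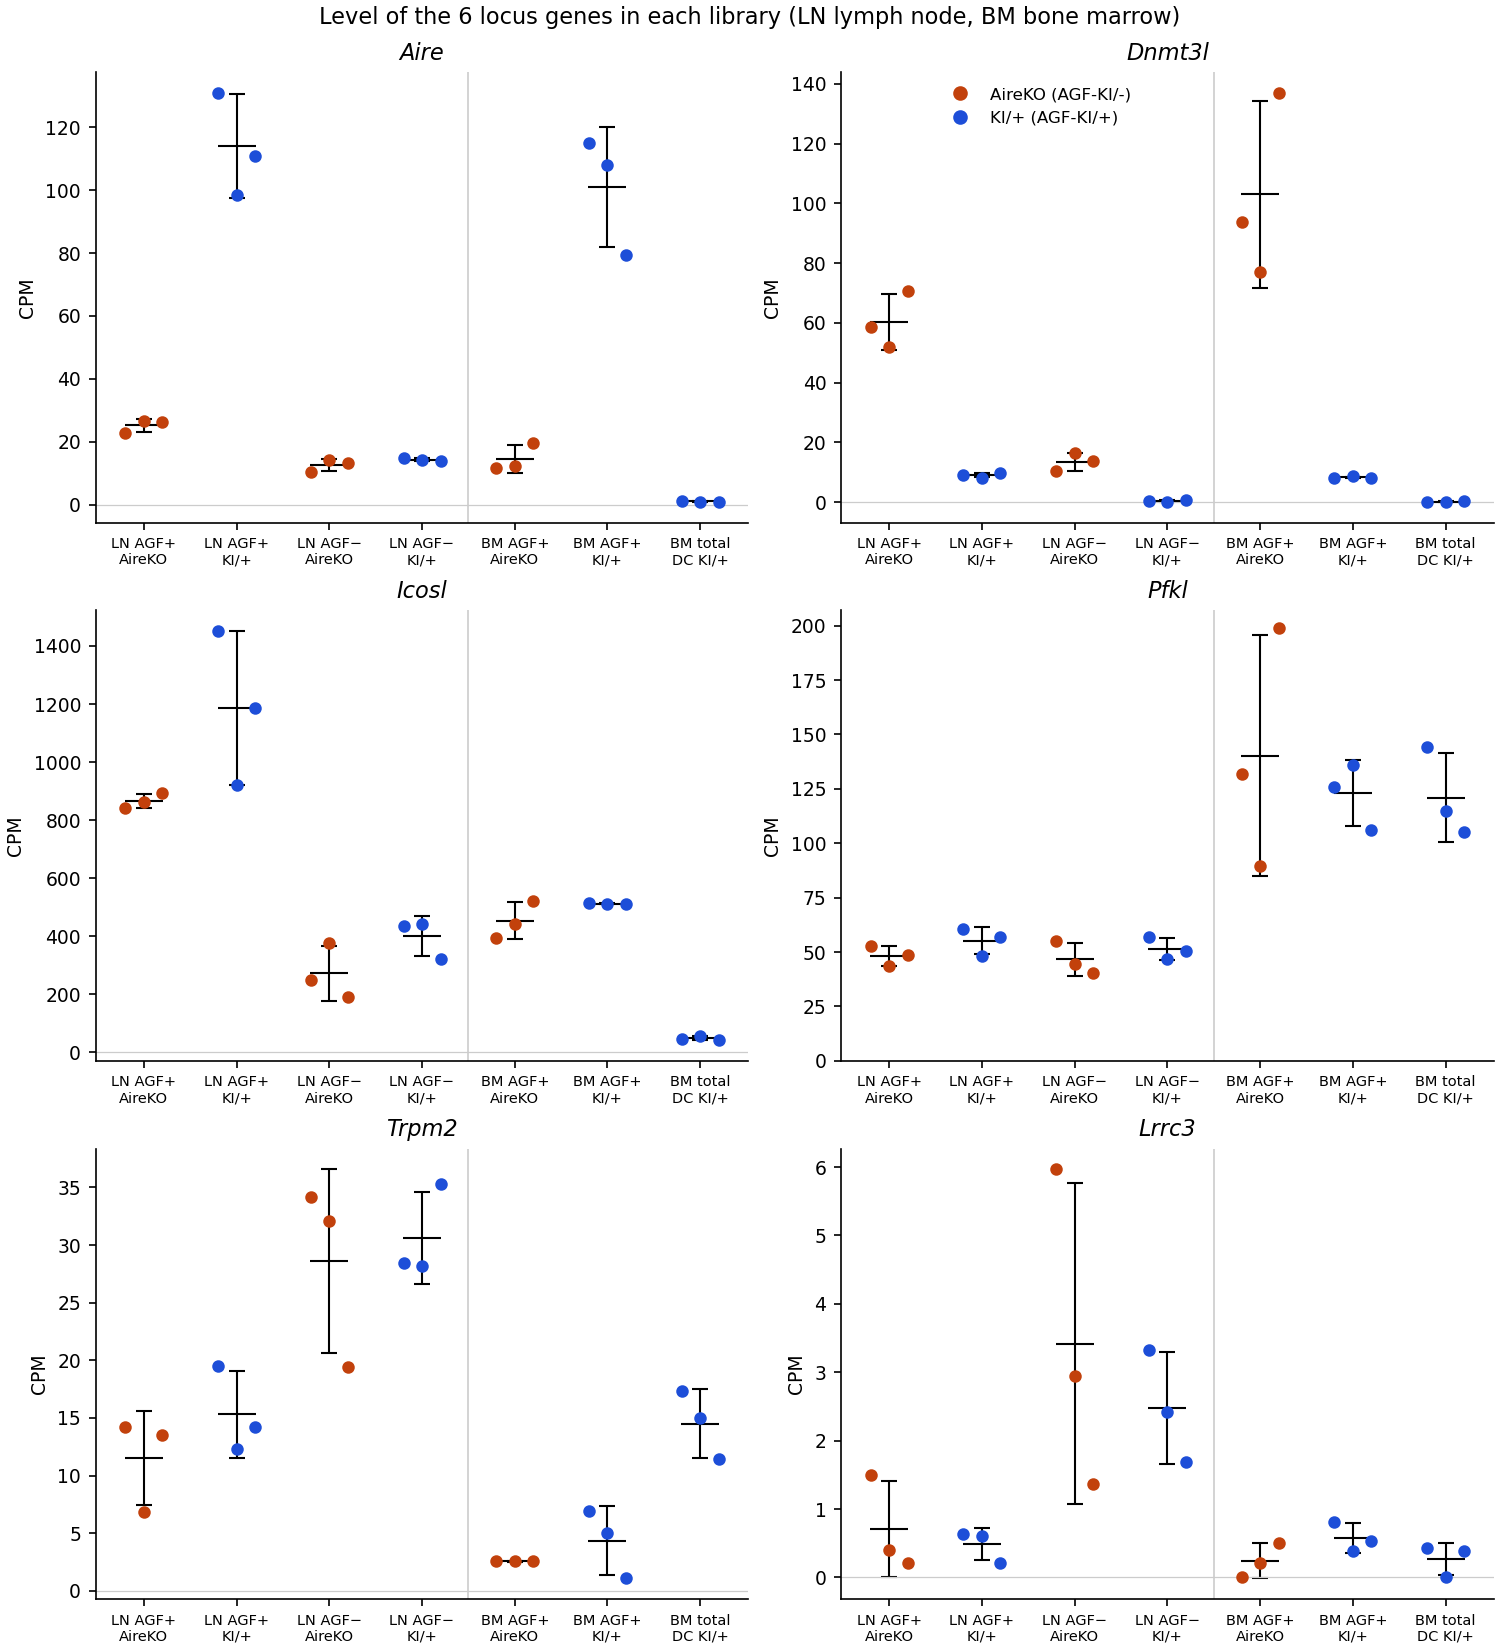
CPM of the 6 genes in the 7 groups on linear axes, each point 1 library, with the mean and SD of 3 in black. Aire stands at 22.7 to 26.5 CPM in lymph node AGF+ AireKO cells and at 98.6 to 131 CPM in AGF+ KI/+ cells, Dnmt3l is highest in the AireKO groups, and Pfkl is lower in lymph node AGF+ cells (43.6 to 60.4 CPM) than in bone marrow AGF+ cells (89.5 to 199 CPM).

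Aire, the gene the reporter follows, was highest in AGF+ cells of KI/+ mice, and AGF+ cells of AireKO mice kept a lower level. In lymph node AGF+ cells it had 22.7, 26.5 and 26.2 CPM in AireKO libraries, against 131, 98.6 and 111 CPM in KI/+ libraries. In bone marrow AGF+ cells it had 11.5, 12.4 and 19.6 CPM in AireKO libraries, against 115, 108 and 79.4 CPM in KI/+ libraries. Every AireKO library of AGF+ cells lay below every KI/+ library of the same tissue. The log2 difference of AireKO from KI/+ was -2.19 ± 0.15 (SE, n = 3 each) in lymph node (edgeR quasi-likelihood test, Benjamini-Hochberg adjusted p = 8.6e-06) and -2.81 ± 0.22 in bone marrow (adjusted p = 3.5e-04). With the libraries numbered 2 left out, bone marrow gave -2.67 with an adjusted p of 0.161, against a range of 1.7e-42 to 0.161 over the 14 alternatives tried, and lymph node gave -2.33 (adjusted p = 0.00316, range 2.1e-34 to 0.00316).

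Lymph node AGF- cells were not free of Aire transcripts. They had 10.5, 14.2 and 13.2 CPM in AireKO libraries, against 14.9, 14.1 and 13.9 CPM in KI/+ libraries. The groups overlapped, and the difference of -0.19 ± 0.16 on the log2 scale (95% interval -0.55 to 0.16) did not pass the test (adjusted p = 0.883). In lymph node, AGF+ cells exceeded AGF- cells by 0.99 ± 0.16 in AireKO mice and by 2.99 ± 0.16 in KI/+ mice, the order that a sort on an Aire reporter selects for. The genotype difference in AGF+ cells minus that in AGF- cells was -2.0 ± 0.22 on the log2 scale (interaction of genotype with sort, adjusted p = 0.00451), and Aire was the only gene called in that interaction, 0.00630% of the 15884 genes tested. Leaving out the libraries numbered 2, the interaction was -2.02 with an adjusted p of 0.674, and over 19 alternatives it ranged from 8.5e-10 to 0.674.

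In bone marrow, where AGF+ cells and total DCs came from different gates, Aire differed more widely. AGF+ KI/+ cells averaged 101 ± 19.1 CPM (SD, n = 3) and total DCs 1.02 ± 0.235 CPM, with 6, 4 and 5 reads in the 3 total DC libraries. This was a difference of 6.61 ± 0.31 on the log2 scale (adjusted p = 2.0e-07). The reporter difference of KI/+ mice in lymph node minus that in bone marrow was -3.61 ± 0.35 (interaction, adjusted p = 5.1e-07). Among AGF+ cells of KI/+ mice, lymph node averaged 114 ± 16.6 CPM and bone marrow 101 ± 19.1 CPM, with overlapping libraries (0.17 ± 0.17, interval -0.18 to 0.52, adjusted p = 0.401). Among AGF+ cells of AireKO mice, lymph node averaged 25.2 ± 2.10 CPM and bone marrow 14.5 ± 4.47 CPM, a called difference of 0.81 ± 0.19 (adjusted p = 0.00165) that was 0.65 without the libraries numbered 2 (adjusted p = 0.0728, the highest of 14 alternatives, whose lowest was 2.4e-04). By CPM per kilobase of exon, Aire ranked 7674th of 27051 genes with a count in lymph node AGF+ AireKO cells, and 1293rd of 27615 in AGF+ KI/+ cells.

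Dnmt3l, the methyltransferase cofactor that begins inside the body of Aire, was higher in AireKO than in KI/+ cells of every sort. In lymph node AGF+ cells it had 58.5, 51.8 and 70.5 CPM in AireKO libraries, against 9.14, 8.21 and 9.60 CPM in KI/+ libraries. In lymph node AGF- cells it had 55, 95 and 71 reads in AireKO libraries, against 2, 0 and 3 reads in KI/+ libraries. In bone marrow AGF+ cells it had 93.9, 76.9 and 137 CPM in AireKO libraries, against 8.16, 8.62 and 8.03 CPM in KI/+ libraries. The genotypes did not overlap in any of these 3 sorts. The log2 rise of Dnmt3l was 2.73 ± 0.23 in AGF+ and 5.16 ± 0.42 in AGF- cells of lymph node (adjusted p = 1.1e-04 and 1.0e-04) and 3.63 ± 0.24 in bone marrow (adjusted p = 1.5e-04). The value in AGF- cells rests on 5 reads in KI/+, and in a fit of those 6 libraries alone it was 5.14 with an adjusted p of 0.0920, the highest of 14 alternatives, whose lowest was 1.6e-33. It was 4.39 without the libraries numbered 2, 4.57 without KI/+ replicate 2, which had no read, and 5.84 without KI/+ replicate 3. The rise in AGF+ cells minus that in AGF- cells, -2.42 ± 0.55, did not pass (interval -3.61 to -1.23, adjusted p = 1.00). With no filter on low counts it did (-2.43, adjusted p = 0.0132), the lowest of 19 alternatives, whose highest was 1.00, and it moved to -1.84 without AGF- KI/+ replicate 2, to -3.11 without AGF- KI/+ replicate 3 and to -1.62 without the libraries numbered 2.

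Dnmt3l also followed the reporter within each genotype. In lymph node, AGF+ exceeded AGF- cells of AireKO mice by 2.15 ± 0.23 (log2, adjusted p = 1.5e-05), where means were 60.3 ± 9.47 and 13.5 ± 3.09 CPM. In KI/+ mice the difference was 4.58 ± 0.44 (adjusted p = 1.1e-05), where means were 8.98 ± 0.710 and 0.359 ± 0.325 CPM. Bone marrow AGF+ KI/+ cells had 130 Dnmt3l reads in 3 libraries and total DCs had 3, a ratio of 40.6 with a 95% counting interval of 13.6 to 199.5. Between tissues, AGF+ cells of KI/+ mice averaged 8.98 ± 0.710 CPM in lymph node and 8.27 ± 0.309 CPM in bone marrow (0.12 ± 0.27, interval -0.44 to 0.67, adjusted p = 0.739). In AireKO mice lymph node AGF+ cells were lower than bone marrow AGF+ cells (-0.77 ± 0.22 on the log2 scale, adjusted p = 0.00541). Leaving out bone marrow AireKO replicate 3, the library at 137 CPM, gave -0.53 with an adjusted p of 0.0567, against 3.7e-04 to 0.0567 over 14 alternatives. The test of whether the genotype difference itself differed between tissues called no gene (0% of 17265, with 456 at an unadjusted p under 0.05 by edgeR, and 0 called with 383 unadjusted by DESeq2), with Dnmt3l at -0.88 ± 0.34 (interval -1.60 to -0.17, adjusted p = 1.00) and Aire at 0.64 ± 0.26 (interval 0.10 to 1.17, adjusted p = 1.00).

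Read against each other, the pair changed places with genotype. Dnmt3l made up 72.0%, 66.2% and 72.9% of the reads counted to either gene in lymph node AGF+ AireKO libraries, against 6.50%, 7.68% and 7.96% in KI/+ libraries. In lymph node AGF- cells its share was 49.5%, 53.7% and 51.1% in AireKO libraries, against 2.90%, 0% and 4.35% in KI/+ libraries, where 69 to 70 reads in all allow up to 5.20% at a count of 0 (Wilson 95% interval). In bone marrow AGF+ cells the share was 89.1%, 86.1% and 87.5% in AireKO libraries, against 6.60%, 7.36% and 9.18% in KI/+ libraries. The genotypes did not overlap in any sort, and each exact two-sided permutation p over libraries was 0.1, the smallest that 3 against 3 can give. In total DCs the share rested on 5 to 7 reads per library, with Wilson intervals as wide as 3.62% to 62.4%, and AGF+ and total DC libraries overlapped (exact permutation p = 0.400).

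**Figure D2:**
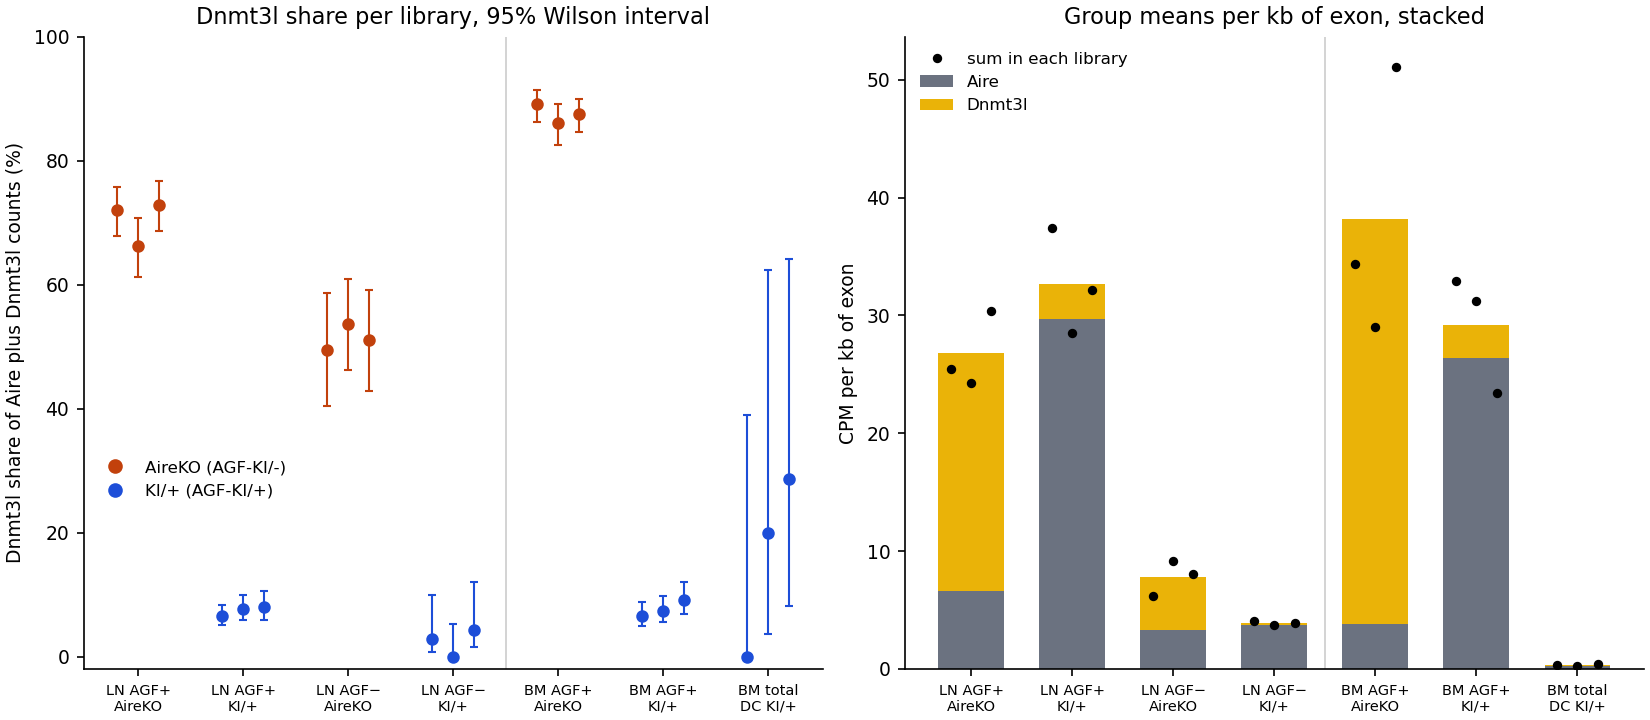
Share of Dnmt3l in the reads counted to Aire or Dnmt3l, in percent, for each library with its Wilson 95% interval (left), and mean CPM per kb of exon of both genes stacked by group with the sum in each library as points (right). AireKO libraries range from 49.5% to 89.1%, and KI/+ libraries of AGF+ cells from 6.50% to 9.18%.

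The sum of both genes moved less than either alone in AGF+ cells. In lymph node AGF+ cells the summed level was 85.4 ± 9.89 CPM in AireKO and 123 ± 17 CPM in KI/+ without overlap (exact permutation p = 0.1). Per kilobase of exon, which allows for the shorter Dnmt3l, it was 26.7 ± 3.27 and 32.7 ± 4.47 CPM per kb in AireKO and KI/+ with overlap (exact permutation p = 0.2). In bone marrow AGF+ cells the sum was 117 ± 35.3 CPM in AireKO and 109 ± 19.3 CPM in KI/+ (exact permutation p = 0.8). In lymph node AGF- cells it was 26.1 ± 4.99 CPM in AireKO and 14.7 ± 0.6 CPM in KI/+, without overlap. Across all 21 libraries the log2 levels of Aire and Dnmt3l had a Pearson r of 0.36, a description over libraries that share genotype, sort and tissue.

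Icosl, the costimulatory ligand downstream of Dnmt3l, was the most abundant of the 6 genes per kilobase of exon in every lymph node group and in AGF+ cells of bone marrow. In lymph node AGF+ KI/+ cells it reached 257 CPM per kb, against 29.7 for Aire, and ranked 44th of 27615 genes with a count by CPM per kb. In KI/+ mice it had 1451, 922 and 1187 CPM in lymph node AGF+ libraries, against 437, 444 and 321 CPM in AGF- libraries. In AireKO mice it had 843, 862 and 892 CPM in AGF+ libraries, against 250.1, 376 and 191 CPM in AGF- libraries. AGF+ and AGF- libraries did not overlap in either genotype. Icosl was higher in AGF+ cells, the log2 difference being 1.66 ± 0.23 in AireKO mice (adjusted p = 1.3e-04) and 1.57 ± 0.22 in KI/+ mice (adjusted p = 2.6e-04). In bone marrow it had 514, 511 and 509.9 CPM in AGF+ KI/+ libraries, against 47.1, 57.4 and 42.9 CPM in total DC libraries, a difference of 3.39 ± 0.14 (adjusted p = 1.6e-07).

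The reporter difference of Icosl in lymph node minus that in bone marrow was -1.81 ± 0.28 on the log2 scale (interaction, adjusted p = 9.2e-05). Lymph node AGF+ cells were themselves above bone marrow AGF+ cells, by 0.93 ± 0.20 in AireKO mice (adjusted p = 5.1e-04) and by 1.22 ± 0.20 in KI/+ mice (adjusted p = 3.0e-05). Between genotypes no Icosl difference passed adjustment among the filtered genes. It was -0.47 ± 0.22 in lymph node AGF+ cells (interval -0.94 to -0.00, adjusted p = 0.967), where the highest AireKO library, at 892 CPM, lay below the lowest KI/+ library, at 922 CPM. It was -0.57 ± 0.22 in lymph node AGF- cells (interval -1.04 to -0.09, adjusted p = 0.819) and -0.17 ± 0.13 in bone marrow AGF+ cells, with overlapping libraries in both. The lymph node AGF- value was called with no filter on low counts (-0.57, adjusted p = 0.00840), 1 of 14 alternatives, whose highest adjusted p was 0.998. Markers of mature DCs (Ccr7, Fscn1, Ccl22, Relb and Cd40) summed to 1172 to 2497 CPM in AGF- AireKO cells and 2231 to 3209 CPM in AGF- KI/+ cells of lymph node, and their part in the Icosl values was not tested.

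Relatives of Icosl were called in both directions between sorts. Of 9 other tested genes of the ICOS, CD28 and B7 family in lymph node, 2 were called higher and 4 lower in AGF+ cells of AireKO mice, and 1 higher and 3 lower in those of KI/+ mice, where 11.4% and 13.3% of all genes were called higher and lower in AireKO and 10.1% and 11% in KI/+ mice, at family medians of -0.49 and -0.78 on the log2 scale against 0.007 and 0.015 over all genes. Cd80, a ligand of CD28, rose by 0.99 ± 0.19 in AireKO mice and by 1.0 ± 0.19 in KI/+ mice. Pdcd1lg2, a ligand of PD-1, was lower in both (-1.36 ± 0.23 in AireKO mice and -0.95 ± 0.22 in KI/+ mice), as was Vsir, an inhibitory relative (-1.21 ± 0.16 in AireKO mice and -0.78 ± 0.16 in KI/+ mice). In bone marrow AGF+ cells, 1 of 7 tested relatives was called higher and 3 lower than in total DCs, where 22.8% and 21.6% of all genes were, with Vsir at -2.10 ± 0.30. Without the libraries numbered 2 these counts were 1 higher and 4 lower in lymph node AireKO, 1 and 2 in lymph node KI/+, and 0 and 2 in bone marrow, and Pdcd1lg2 lost its call in KI/+ mice (adjusted p = 0.0727, the highest of 14 alternatives, whose lowest was 0.00133). Icos, the receptor, stood at 26.3 ± 5.78 CPM in lymph node AGF+ AireKO cells and 28.9 ± 5.65 CPM in AGF+ KI/+ cells, and was called in none of the comparisons. No relative was called between genotypes.

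Partners of Dnmt3l were likewise not called between genotypes, in any of the 3 sorts. Of 16 tested genes of the DNA methylation machinery in lymph node, 2 were called higher in AGF+ than AGF- cells of AireKO mice, and 1 higher and 2 lower in KI/+ mice, shares no larger than the 24.7% and 21.1% of all genes called there. Without the libraries numbered 2, 1 was called higher and 0 lower in each genotype. Tet1, which oxidises methylated cytosine, was called in both, at 129.7 ± 10.1 CPM in AGF+ and 33.3 ± 7.90 CPM in AGF- cells of AireKO mice, and at 112 ± 27.2 CPM in AGF+ and 31.2 ± 8.22 CPM in AGF- cells of KI/+ mice. Its log2 differences were 1.96 ± 0.22 and 1.84 ± 0.22 in AireKO and KI/+ mice. Dnmt3a, the catalytic partner, had 326 ± 16.3 CPM in AGF+ AireKO cells and 344 ± 18 CPM in AGF+ KI/+ cells of lymph node, and Dnmt3b had 7.71 ± 0.166 and 8.79 ± 1.5 CPM in the same groups. In bone marrow, 9 of 16 were called higher and 4 lower in AGF+ cells than in total DCs (22.8% and 21.6% of all genes, and 7 and 2 of the 16 without the libraries numbered 2), at a median of 0.71 against 0.017 over all genes. Uhrf1, which guides maintenance methylation, rose by 2.16 ± 0.20 there, Dnmt3b by 1.52 ± 0.25 and Tet1 by 2.76 ± 0.32, while Tet2 was lower (-1.0 ± 0.11). Of the germ cell markers Ddx4, Dazl, Sycp1, Sycp3, Stra8 and Mael, which mark the cells where Dnmt3l is best known, Sycp1 was at 0 in all groups and the list summed to 0.605 to 8.51 CPM. The 1 that passed the filter, Stra8, which acts at the entry into meiosis, was higher in lymph node AGF+ cells. It had 21, 22 and 28 reads in AGF+ and 3, 4 and 6 reads in AGF- libraries of AireKO mice, and 15, 47 and 19 reads in AGF+ and 3, 1 and 0 reads in AGF- libraries of KI/+ mice. The log2 differences were 2.46 ± 0.55 (adjusted p = 0.00433) and 3.91 ± 0.67 (adjusted p = 9.6e-04) in AireKO and KI/+ mice. Stra8 was also higher in lymph node than bone marrow AGF+ cells, by 2.76 in AireKO and 3.5 in KI/+ mice.

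Pfkl, the glycolytic enzyme on the other side of Aire, was not called between the sorts. In KI/+ mice it had 60.4, 48.2 and 57.1 CPM in lymph node AGF+ libraries, against 57.0, 47.0 and 50.5 CPM in AGF- libraries. In AireKO mice it had 52.7, 43.6 and 48.6 CPM in AGF+ libraries, against 55.1, 44.4 and 40.2 CPM in AGF- libraries. In bone marrow it had 126, 136 and 106 CPM in AGF+ KI/+ libraries, against 144, 115 and 105 CPM in total DC libraries. These groups overlapped, and the log2 differences were 0.05 ± 0.15 (interval -0.28 to 0.37) in lymph node AireKO, 0.10 ± 0.15 (-0.22 to 0.42) in lymph node KI/+ and 0.02 ± 0.24 (-0.50 to 0.55) in bone marrow. Genotype differences were -0.21 in lymph node AGF+, -0.16 in lymph node AGF- and 0.20 in bone marrow AGF+ cells, at adjusted p-values of 0.967, 0.892 and 1.00. Pfkl was called between tissues. Lymph node AGF+ cells were lower than bone marrow AGF+ cells, at -1.54 ± 0.21 in AireKO mice (adjusted p = 4.6e-06) and -1.15 ± 0.21 in KI/+ mice (adjusted p = 1.0e-04).

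Most other genes of glycolysis were also lower in lymph node. Of 23 tested, 16 were called lower and 6 higher in lymph node than in bone marrow AGF+ cells of AireKO mice, and 15 lower and 6 higher in KI/+ mice, where 51.4% and 54.2% of all genes were called, at medians of -1.29 and -1.06 against 0.043 and 0.040 over all genes. Without the libraries numbered 2, 15 were called lower and 3 higher in AireKO mice, and 15 lower and 4 higher in KI/+ mice. Pgk1, phosphoglycerate kinase, was at -3.57 ± 0.22 and -3.38 ± 0.21 in AireKO and KI/+ mice, and Tpi1, triosephosphate isomerase, at -3.03 ± 0.22 and -2.89 ± 0.22. Within tissues the list was called lower more than higher in AGF+ cells, 10 lower and 1 higher in lymph node AireKO, 8 lower and 1 higher in lymph node KI/+, and 11 lower and 2 higher in bone marrow, where 13.3%, 11% and 21.6% of all genes were called lower. Without the libraries numbered 2 these were 5 lower and 1 higher, 6 and 1, and 7 and 1. Pfkp, the platelet-type phosphofructokinase, was among those lower, at -0.78 ± 0.12 in lymph node AireKO, -0.63 ± 0.12 in lymph node KI/+ and -2.32 ± 0.20 in bone marrow.

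The mixture of phosphofructokinase subunit transcripts differed between the sorts. Per kilobase of exon, Pfkl made up 53.6%, 56.0% and 52.2% of the 3 subunit genes in bone marrow AGF+ KI/+ libraries, against 33.1%, 19.6% and 19% in total DC libraries, where Pfkp made up 69.4% on average. In lymph node its share was 44.2% ± 0.762 in AGF+ and 36.8% ± 3.70 in AGF- cells of AireKO mice. In KI/+ mice it was 48.0% ± 3.34 in AGF+ and 41.0% ± 0.759 in AGF- cells. AGF+ libraries exceeded the AGF- or total DC libraries in all 3 of these comparisons. In bone marrow AGF+ AireKO cells the shares spread from 45.7% to 63.8%, the highest being replicate 3, which also had the highest Pfkl level of any library at 199 CPM.

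**Figure D3:**
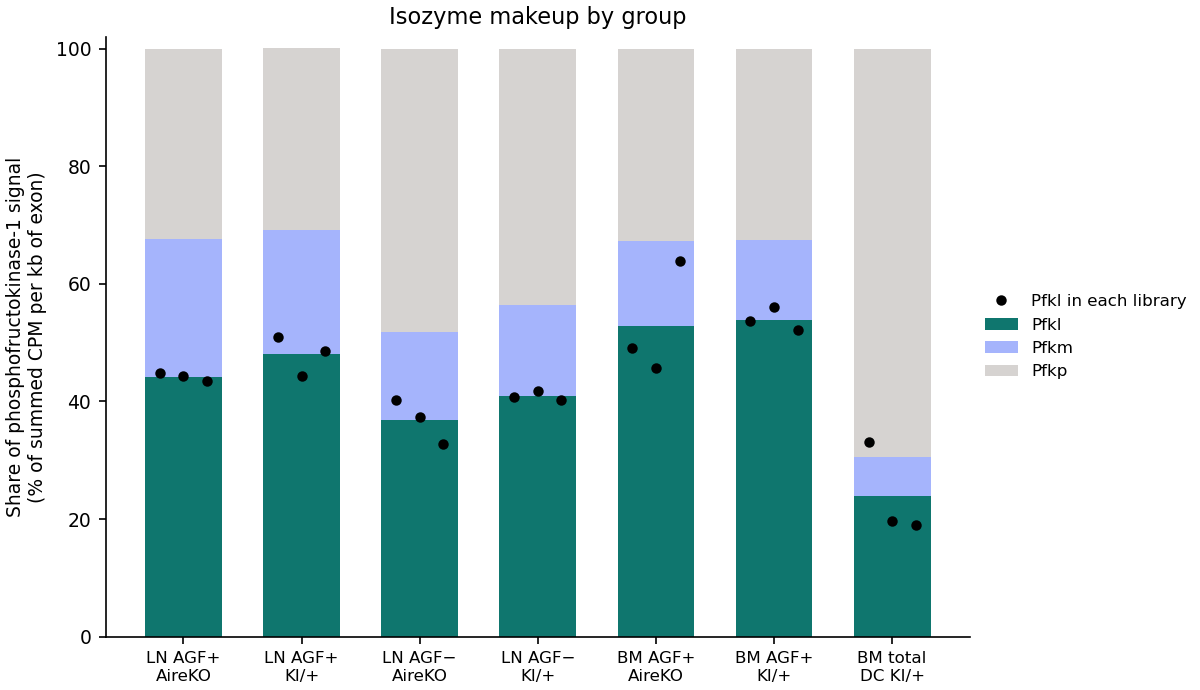
Mean shares of Pfkl, Pfkm and Pfkp in their summed CPM per kb of exon, in percent and stacked by group, with the Pfkl share of each library as points. Bone marrow AGF+ KI/+ libraries lie at Pfkl shares of 52.2% to 56.0%, and total DC libraries at 19% to 33.1%.

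Trpm2, the ADP-ribose-gated channel, was lower in AGF+ cells. In KI/+ mice it had 19.5, 12.3 and 14.2 CPM in lymph node AGF+ libraries, against 28.4, 28.2 and 35.3 CPM in AGF- libraries. In AireKO mice it had 14.2, 6.82 and 13.5 CPM in AGF+ libraries, against 34.2, 32.1 and 19.4 CPM in AGF- libraries. In bone marrow it had 6.93, 4.98 and 1.07 CPM in AGF+ KI/+ libraries, against 17.3, 15 and 11.4 CPM in total DC libraries. No AGF+ library overlapped its AGF- or total DC libraries, and the log2 differences were -1.31 ± 0.28 in lymph node AireKO (adjusted p = 0.00366), -1.0 ± 0.27 in lymph node KI/+ (adjusted p = 0.0192) and -1.75 ± 0.42 in bone marrow (adjusted p = 0.00591). With the libraries numbered 2 left out, the values were -0.95, -0.91 and -1.83 with adjusted p-values of 0.0619, 0.0784 and 0.0701, each the highest of 14 alternatives, and the KI/+ lymph node call was also lost without AGF+ replicate 2 (adjusted p = 0.0752), AGF+ replicate 3 (0.0681) or AGF- replicate 3 (0.0760). The lowest adjusted p-values over alternatives were 6.7e-08, 7.5e-05 and 1.0e-08. Genes of monocytes and macrophages (Ly6c2, Ccr2, Lyz2, Csf1r and Adgre1), cells known to use TRPM2, moved the same way. They summed to 374 to 495 CPM in AGF+ and 1918 to 2131 CPM in AGF- cells of lymph node KI/+, and to 108 to 192 CPM in AGF+ cells and 942 to 1405 CPM in total DCs of bone marrow. All 5 were called lower in lymph node AGF+ cells of each genotype, and their part in the Trpm2 values was not tested.

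Between tissues Trpm2 was higher in lymph node than bone marrow AGF+ cells, by 2.15 ± 0.43 in AireKO mice (adjusted p = 3.3e-04) and by 1.85 ± 0.39 in KI/+ mice (adjusted p = 4.3e-04). No genotype difference passed, the values being -0.42 ± 0.29 and -0.11 ± 0.27 in lymph node AGF+ and AGF- cells and -0.71 ± 0.51 in bone marrow AGF+ cells. Of the other TRPM channels, 3 were tested in lymph node, and Trpm3 was the one called between sorts. It had 14, 14 and 9 reads in AGF+ libraries and 2 reads in each AGF- library of AireKO mice, and 8, 15 and 14 reads in AGF+ libraries and 0, 2 and 0 reads in AGF- libraries of KI/+ mice. The AireKO call of Trpm3 was lost without the libraries numbered 2 (adjusted p = 0.0650, the highest of 13 alternatives, whose lowest was 0.00116). In bone marrow both tested channels, Trpm4 at -0.96 ± 0.30 and Trpm7 at -0.35 ± 0.13, were called lower in AGF+ cells. Both calls were lost without the libraries numbered 2 (adjusted p = 0.0740 and 0.241, within 0.00241 to 0.0827 and 0.00986 to 0.241 over 14 alternatives each). That of Trpm4 was also lost without AGF+ replicate 3 (0.0827) or total DC replicate 1 (0.0573), and that of Trpm7 without AGF+ replicate 1 or 2 or total DC replicate 2 or 3 (0.0751 to 0.187).

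Lrrc3 lay near the detection limit. In KI/+ mice it had 4, 4 and 1 reads in lymph node AGF+ libraries, against 15, 12 and 8 reads in AGF- libraries. In AireKO mice it had 9, 2 and 1 reads in AGF+ libraries, against 32, 17 and 7 reads in AGF- libraries. In bone marrow it had 0, 1 and 2 reads in AGF+ AireKO libraries, 4, 2 and 3 in AGF+ KI/+ libraries and 2, 0 and 2 in total DC libraries, and it did not pass the filter on low counts there. Lrrc3 was called lower in lymph node AGF+ cells, at -2.17 ± 0.65 on the log2 scale in AireKO mice (adjusted p = 0.0240) and -2.23 ± 0.71 in KI/+ mice (adjusted p = 0.0384). The KI/+ call was lost without any 1 of the 6 libraries (adjusted p of 0.0517 to 0.118), and the AireKO call without AGF+ replicate 2 (0.0976), AGF+ replicate 3 (0.0907) or AGF- replicate 1 (0.125). Removal of the libraries numbered 2 gave adjusted p-values of 0.161 and 0.171 in AireKO and KI/+ mice, the highest of 13 alternatives each, whose lowest were 5.9e-04 and 0.00199. Its genotype differences were 0.52 ± 0.84 in AGF+ and 0.46 ± 0.55 in AGF- cells of lymph node, and its reads in bone marrow AGF+ cells gave a ratio of AireKO to KI/+ of 0.376 with a counting interval of 0.0656 to 1.51.

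Ordered by mean level, each gene ranked the groups differently. Aire was highest in lymph node and bone marrow AGF+ KI/+ cells, which overlapped, followed without overlap by lymph node AGF+ AireKO cells, then by bone marrow AGF+ AireKO and both lymph node AGF- groups, where neighbours overlapped, and last by total DCs. Dnmt3l ran without overlap through bone marrow AGF+, lymph node AGF+ and lymph node AGF- cells of AireKO mice, and only then came the KI/+ groups, with both AGF+ groups overlapping each other and the AGF- and total DC groups near 0. Icosl was highest in lymph node AGF+ cells, KI/+ above AireKO without overlap, and lowest in total DCs, and each of the 4 groups between them overlapped its neighbours there. Pfkl put the 3 bone marrow groups, which overlapped, above the 4 lymph node groups, which overlapped too. Trpm2 had both lymph node AGF- groups on top and both bone marrow AGF+ groups at the bottom, and every group overlapped the next one in the order.

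The stretch of chromosome around the locus showed no further genotype call. Within 500 kb of either end of the Aire gene the annotation lists 66 other genes, 14 of them with no read in any library. Of the 14 tested in lymph node and 13 in bone marrow, none was called between genotypes by edgeR. Between sorts, Itgb2, the shared chain of the leukocyte integrins, was lower in AGF+ cells, at -0.80 ± 0.15 in lymph node AireKO, -0.60 ± 0.15 in lymph node KI/+ and -1.53 ± 0.14 in bone marrow. Cstb, an inhibitor of cathepsins, was lower at -0.93 ± 0.26 in lymph node AireKO, -0.82 ± 0.25 in lymph node KI/+ and -1.51 ± 0.18 in bone marrow. Both lymph node calls of Cstb were lost without the libraries numbered 2 (adjusted p = 0.164 and 0.176 in AireKO and KI/+ mice, the highest of 14 alternatives each, whose lowest were 3.5e-05 and 4.1e-04). The KI/+ call was also lost without any 1 of the 6 libraries (0.0576 to 0.103), and the AireKO call without AGF+ replicate 1, AGF+ replicate 2 or AGF- replicate 3 (0.0619 to 0.0795). The KI/+ call of Itgb2 was lost without AGF+ replicate 3 (0.0558, range 3.4e-04 to 0.0558). Median sort differences over the tested neighbours were -0.15 in lymph node AireKO, 0.25 in lymph node KI/+ and -0.13 in bone marrow, against 0.007, 0.015 and 0.017 over all genes. For AireKO against KI/+ the neighbour median was -0.22 in lymph node AGF+ cells, against -0.010 over all genes. It was 0.02 in lymph node AGF- and -0.02 in bone marrow AGF+ cells, against 0.026 and -0.005.

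The neighbour with the widest rise was Gm47922 (ENSMUSG00000112662), a long non-coding RNA on the minus strand whose end lies 37519 bases beyond Icosl, named here after its values were seen. In lymph node it had 14, 9.43 and 9.01 CPM in AGF+ and 2.61, 4.49 and 2.53 CPM in AGF- libraries of AireKO mice, and 15.8, 13.4 and 14.2 CPM in AGF+ and 4.66, 6.26 and 3.59 CPM in AGF- libraries of KI/+ mice. AGF+ libraries were above all AGF- libraries in both genotypes, by 1.74 ± 0.30 on the log2 scale in AireKO (adjusted p = 7.1e-04) and 1.57 ± 0.28 in KI/+ (adjusted p = 0.00140). In bone marrow it had 44 reads over the AGF+ KI/+ libraries and 5 over the total DC libraries (2.96 ± 0.54, adjusted p = 0.00115). Across 21 libraries its level and that of Icosl had a Pearson r of 0.90 on the log2(CPM + 1) scale.

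**Figure D4:**
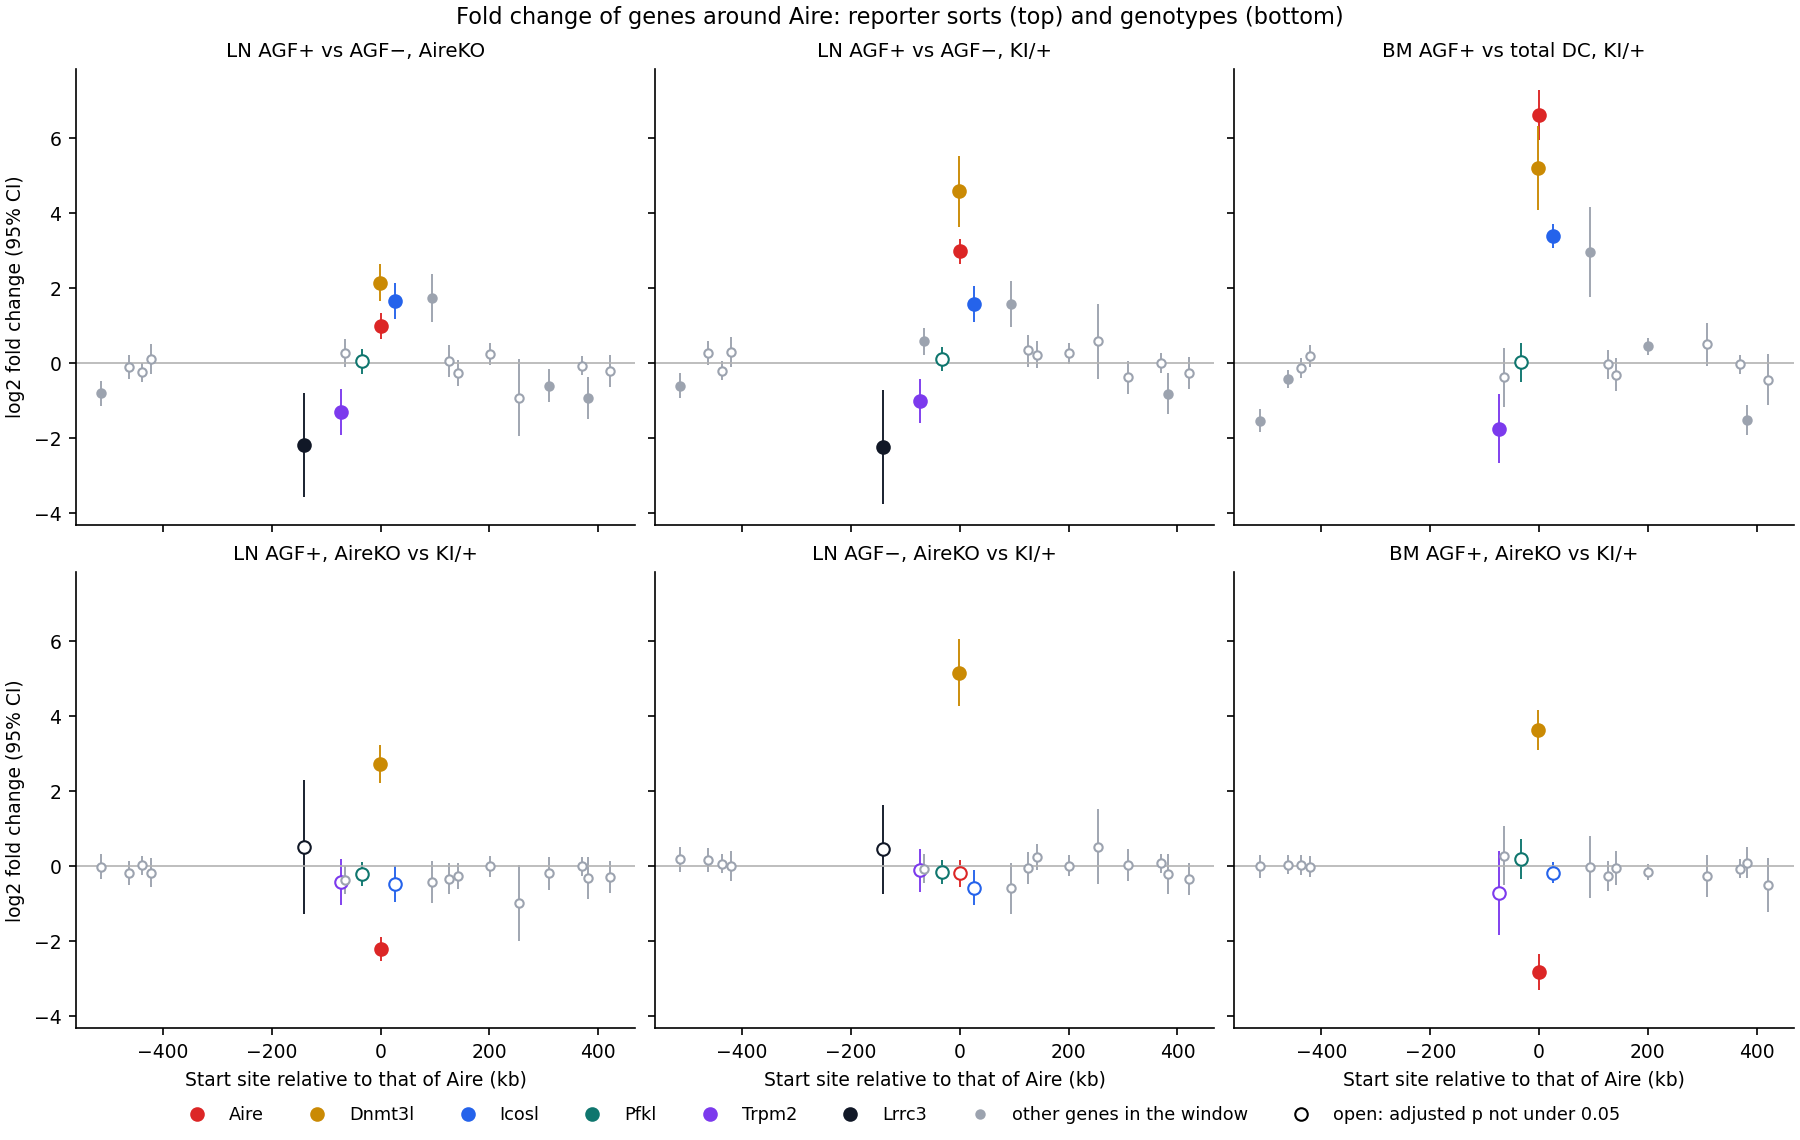
Log2 fold change of each tested gene within 500 kb of either end of the Aire gene against the distance of its start from the Aire start in kb, for the sorts (top) and genotypes (bottom), with 95% intervals, the 6 locus genes in colour and called genes filled. Dnmt3l (2.73, 3.63 and 5.16) and Aire (-2.19 and -2.81 in AGF+ cells) stand apart from the other genes in the genotype panels.

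Genes with the most similar pattern were ranked by Pearson r on log2(CPM + 1) over the 21 libraries, among 12014 genes averaging at least 2 CPM. For Aire they were Tjp3 (r = 0.89), Hdac6 (0.89), Chst10 (0.88), Icosl (0.87) and Tmem9 (0.86), so that its chromosomal neighbour Icosl came 4th. For Dnmt3l they were Dph7 (0.79), Mid2 (0.78), Ranbp17 (0.78), Atp2b4 (0.77) and Fam135a (0.77). For Icosl they included Fbxo10 (0.98), Gaa (0.97), Rhbdf1 (0.97) and Cdh22 (0.97). Cdh22, for example, averaged 32.1 CPM in lymph node AGF+ AireKO cells, 31.0 CPM in AGF+ KI/+ cells and 0.207 CPM in bone marrow total DCs. Among the 6 genes, Icosl correlated with Dnmt3l at 0.56, Trpm2 with Lrrc3 at 0.65 and Trpm2 with Pfkl at -0.64. Libraries of a group share their sort, genotype and tissue, so these values describe the pattern over groups.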

How the data were processed

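Read counts per Ensembl gene (unit: counts, not normalised) were used as the authors deposited them, and no column of the deposited table was left unused. Per the labels' protocols, 1 ng of RNA was made into Ovation SoLo libraries. Per the submitters' processing notes the build was mm10 (GRCm38), and the tools were edgeR 3.38.1, Picard 2.21.1, HTSeq 0.11.2, STAR 2.7.3a, fastp 0.20.0 and SAMtools 1.9. The sources used here do not give the annotation release, strand setting or handling of multi-mapping reads. The deposited normalised table was not used. Symbols and positions came from GENCODE vM21, in which 327 IDs with 0.0139% of counts had no symbol.

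Tests used edgeR 4.0.16 in R 4.3.3 (TMM, expression filter by group, quasi-likelihood F test, Benjamini-Hochberg adjusted p under 0.05 over all genes tested). Lymph node comparisons came from 1 fit of 12 libraries, bone marrow ones from 1 fit of 9, and comparisons between tissues from all 21. CPM used TMM effective sizes, 0.876 to 1.09 of the totals. Shares used exact permutation tests over libraries. Alternatives were DESeq2 1.42.0 (size factors, Wald test), library size alone, no filter or at least 10 counts in 3 libraries, only the groups compared, the replicate block, and libraries left out. Replicates differed by more than counting noise in all 21 pairs (chi-square over degrees of freedom of 4.04 to 17.9). Same-numbered libraries deviated together in all 6 comparisons within a tissue (every r from 0.102 to 0.465). In the comparisons between tissues r was -0.00715 to 0.168. Over all pairs of groups within a tissue, every r exceeded 0.1 in 7 of 9 (lowest r -0.0470). Between tissues this held in 1 of 12 pairs of groups (highest r 0.235). Whether same-numbered libraries came from the same mice or batch was not tested.

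The members, lists and tests were chosen with earlier results of these data known. Named list genes are the 4 with the smallest p among those called per list and comparison, window genes up to 6 changed at least 1.5-fold, and likeness the 5 highest r, of which 1 gene is not reported here. Icos, Dnmt3a and Dnmt3b were named as partners of members. The scripts were tested on simulated counts. Tables were made with pandas 2.3.3 and scipy 1.17.1, figures with matplotlib 3.10.9 and numpy 2.4.6, in Python 3.11.15.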

Additional observations from a re-analysis of the deposited data

Results flagged for a closer look

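The reporter difference of Aire changed with genotype in lymph node, the interaction being -2.0 ± 0.22 on the log2 scale (edgeR adjusted p = 0.00451). In KI/+ mice the reporter difference of Aire changed with tissue, lymph node minus bone marrow being -3.61 ± 0.35 (adjusted p = 5.1e-07). The same test gave -1.81 ± 0.28 for Icosl (adjusted p = 9.2e-05). The cells set against AGF+ differ between the tissues, AGF- cells of 1 gate in lymph node and the separately gated total DCs in bone marrow, so tissue and gate cannot be told apart in both of these last values.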

How the results depend on the processing

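Of 991 values of the 6 genes under an alternative, 965 kept their direction and side of the threshold, 22 lost their call, 4 gained one and 0 reversed. Of 1484 values of the other genes that lists and window named, 1390 kept both, 94 lost their call and 0 reversed. Without the libraries numbered 2 the locus genes called numbered 3 and 3 between lymph node sorts in AireKO and KI/+ mice, 1 for genotype in bone marrow and 0 for genotype by sort. With no filter they numbered 2 (Dnmt3l and Icosl) for genotype in lymph node AGF- cells, where only the groups compared gave 0 (579 genes at an unadjusted p under 0.05), and 2 (Aire and Dnmt3l) for genotype by sort. Leaving out 1 library at a time gave 3 to 4 between lymph node sorts in KI/+ mice.

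Counts of all genes called moved further. Without the libraries numbered 2 they were 1942 between lymph node sorts in KI/+ mice, 3858 between bone marrow sorts, 1 for genotype in bone marrow, 1783 for reporter by tissue and 0 for genotype by sort (326 unadjusted). With no filter, genotype called 97 genes in lymph node AGF+, 270 in lymph node AGF- and 26 in bone marrow AGF+ cells, 14 by sort and 17 by tissue. For genotype in lymph node AGF+ and AGF- cells and by sort, DESeq2 called 4, 3 and 2 and the replicate block 4, 2 and 2. Library size alone called 3 in lymph node AGF+ cells. Leaving out 1 library gave 2 to 7 for genotype in lymph node AGF+ cells (7 without KI/+ replicate 2), 1 to 89 in AGF- cells (89 without AireKO replicate 2) and 1 to 2 by sort (2 without AGF- AireKO replicate 1). The causes were not tested.

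The replicate block changed no call of a locus gene within a tissue, and between tissues it gave Lrrc3 a call for reporter by tissue (-3.31, adjusted p = 0.0269, range 0.0232 to 0.276 over 19 alternatives). Library size alone moved the median of all genes by 0.11, 0.15 and 0.161 on the log2 scale, for bone marrow AGF+ against total DCs and for lymph node against bone marrow in AireKO and KI/+ mice, with 4241 calls higher and 2642 lower (3531 and 3350 with TMM), 5546 and 3683 (4436 and 4439), and 5798 and 3882 (4694 and 4671). At these depths Lrrc3 in bone marrow and Dnmt3l in lymph node AGF- KI/+ cells and total DCs are near the floor.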
